A study of Canis lupus familiaris with 20 samples.

Results

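Collagens and laminins build the scaffold outside cells, matrix metalloproteinases and ADAMTS proteases cut it, and TIMPs block the metalloproteinases. These genes were followed in dog retinas 1 week after the eye was injected with CNTF, ciliary neurotrophic factor, which is a cytokine of the gp130 family. A gene was taken if its array name began as a numbered collagen chain, laminin chain, MMP, TIMP or ADAMTS, and the probe with the highest mean signal over 20 arrays stood for the gene. That gave 76 genes of 35483 on the array. By role they were 8 fibrillar collagens, 7 network collagens including those of basement membranes, 14 other collagens, 8 laminin chains, 19 MMPs, 12 ADAMTS proteases, 4 ADAMTS-like proteins, 3 TIMPs, and COL4A3BP. COL4A3BP is no collagen but the ceramide transfer protein, and its name alone brought it in.

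The arrays came from 10 dogs, each with CNTF in the right eye and buffer (PBS) in the left, and 1 array per eye gave 4 groups of 5. The groups were CNTF-injected and PBS-injected retinas of CNGB3-mutant dogs, then CNTF-injected and PBS-injected retinas of normal dogs. The mutants were homozygous for the missense change D262N in CNGB3 (CNGB3m/m), which encodes a subunit of the cone channel gated by cyclic nucleotides. The normal dogs were 4 carriers (CNGB3+/m) and 1 dog without the change (CNGB3+/+, dog 3). The CNTF dose was 12 µg and tissue was taken after 1 week. All normal dogs were male, and 3 of 5 mutants were female. The sample labels gave 8.9 weeks of age for normal dogs and 10.7 to 11.5 weeks for mutants, while the series description gave about 11 months for both. Genotype therefore cannot be told apart from the labelled age, and it is partly mixed with sex, since every female was a mutant. PBS eyes of a treated dog were the only controls, and no uninjected eye was used here.

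In the eye, type II collagen with type IX and type XI forms the fibrils of the vitreous. Type IV collagen and laminins form basement membranes, among them the inner limiting membrane against the vitreous, the walls of retinal vessels and the membrane under the pigment epithelium. Type I and type III collagens belong to fibrous tissue, such as that of sclera, choroid and scars.

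Each value below is a scaled intensity: the background-subtracted signal of 1 spot, set to the same 75th percentile on every array and multiplied back to a common level of 476.1. Levels of different probes cannot be compared with each other, so only the same probe was compared between arrays. Between 52 and 71.9% of probes were well above background per array, with 52 to 69.9% in CNTF mutant, 60.6 to 66.2% in PBS mutant, 56.1 to 65.3% in CNTF normal and 67.1 to 71.9% in PBS normal retinas. All 10 photoreceptor markers passed the filter on dim probes described below, and RPE65 of the pigment epithelium was above background on all arrays. The 5 slides held 4 arrays each and followed treatment closely. Only slide 3 held both treatments, with the CNTF eyes of normal dogs 1 and 2 and the PBS eyes of mutants 4 and 5. Treatment and slide can therefore hardly be parted here. Within a treatment, genotype was largely tied to slide too. PBS eyes lay on slides 1 and 2 for normal dogs and 2 and 3 for mutants. CNTF eyes lay on slides 3 and 4 for normal dogs and 4 and 5 for mutants. Slides were read from the array names, and for slide 2 the file headers give the slide number of slide 1, while the scan times part the arrays as the names do. The labels name separate dogs as replicates, with 5 per group throughout, and the eyes of a dog were paired by replicate number.

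The first question was how CNTF changed these genes in each genotype. Of the 76 genes 50 passed the filter on dim probes, which asked for a signal well above background in 4 or more of the 5 retinas of some group, and 26 did not, of which 19 were above background on no array. The untested genes included 12 of the MMPs, so that 7 of 19 MMPs were tested, among them MMP2 and MMP9 but not MMP14, a membrane-bound collagenase, which was above background on 1 array. In mutant dogs 21 of the 50 tested genes passed an adjusted p of 0.05 and so counted as called, 8 higher and 13 lower with CNTF. That is 42.0%, against 28.9% of all 29334 tested probes, of which 11.6% were higher and 17.3% lower. In normal dogs 29 were called, 10 higher and 19 lower, which is 58.0% against 51.2% of all probes, of which 23.6% were higher and 27.6% lower.

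Among the tested genes the 2 genotypes moved largely alike in sign: 7 genes were called higher in both, 10 lower in both and 0 in opposite directions, and 43 of 50 estimates had the same sign. The like shares over all probes were not computed, so this agreement is not read as a trait of these genes. The median log2 change of the tested genes was -0.29 in mutant and -0.38 in normal dogs, against -0.09 over all probes in each. Dim probes tended to lower values with CNTF, and most so in normal dogs. Among the dimmest eighth of all probes the median change was -0.22 in mutant and -0.52 in normal dogs, against -0.04 and 0.26 among the brightest eighth. Falls of the dim members COL4A4, COL6A3, COL13A1, COL21A1 and ADAMTS6 are therefore given below beside the median of probes of like signal.

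**Figure D1:**
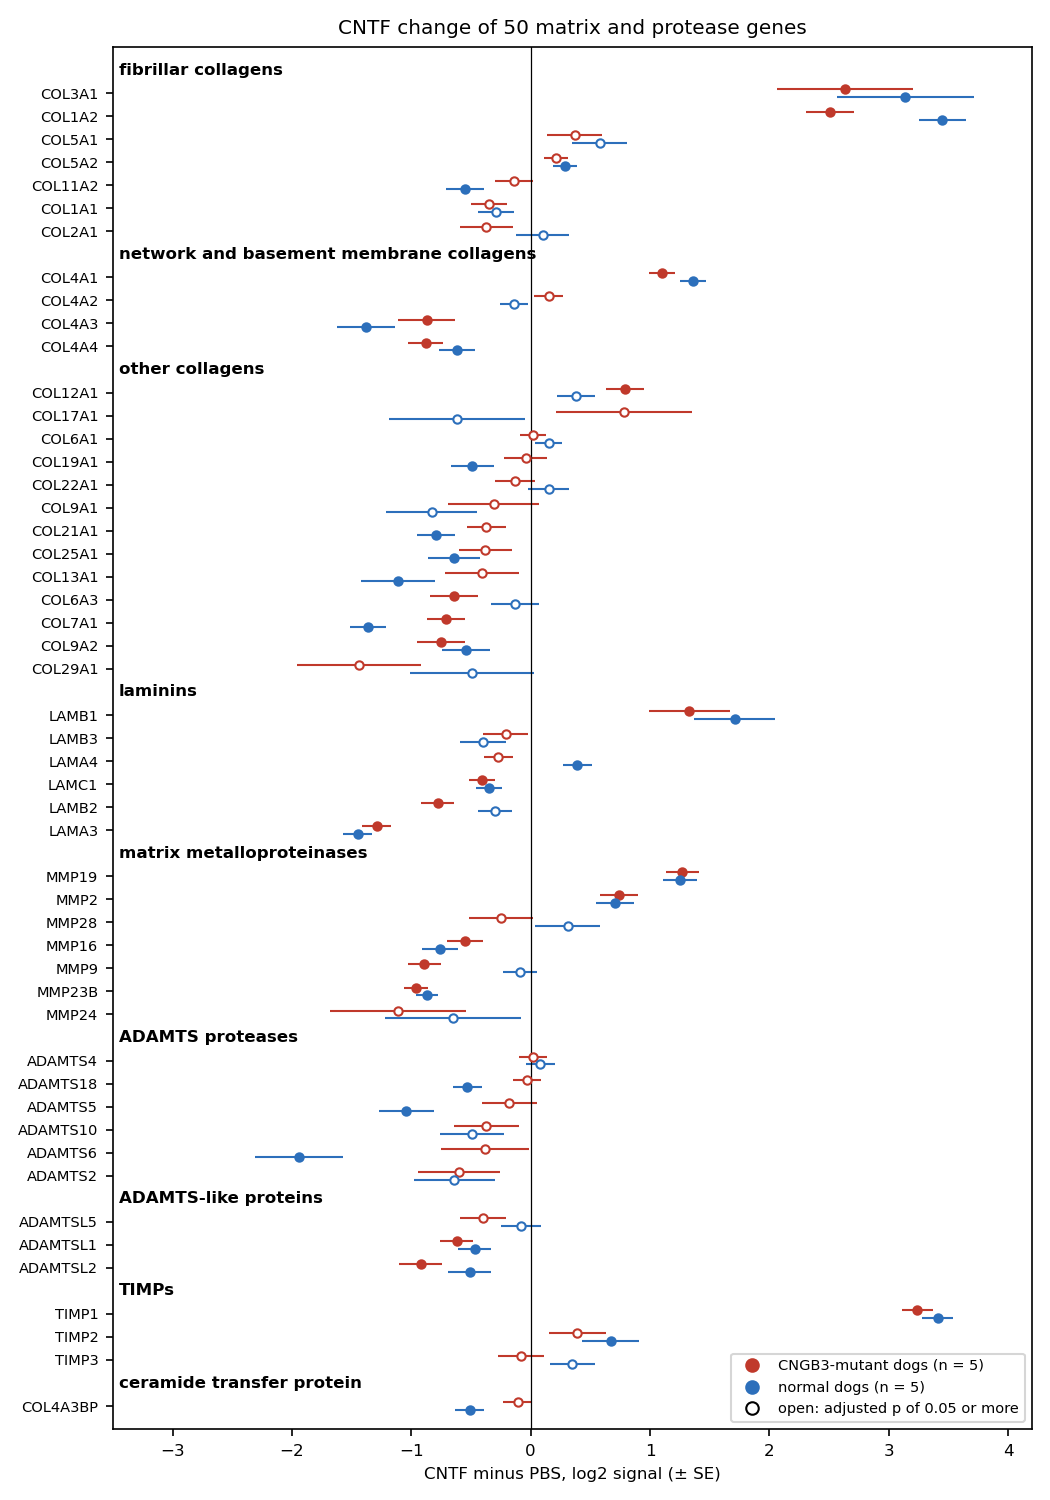
Change with CNTF (CNTF minus PBS, log2 signal, bars ± SE) of the 50 tested genes by role, in CNGB3-mutant dogs (red) and normal dogs (blue), 5 dogs each. Filled points have an adjusted p under 0.05. TIMP1, COL1A2 and COL3A1 lie farthest to the right in both genotypes, while most ADAMTS and many minor collagen genes lie left of 0.

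Among the inhibitors, TIMP1 rose more than any other tested member in mutant dogs, and in normal dogs it stood beside COL1A2. TIMP1 encodes a secreted inhibitor of many MMPs. Its probe lay at chrX:41152713-41152772 on the plus strand of canFam2. In mutant dogs TIMP1 had 15255, 25828, 19260, 17116 and 15897 in CNTF eyes (dogs 1 to 5), against 1704, 2794, 1813, 1749 and 1837 in PBS eyes. In normal dogs TIMP1 had 24790, 16912, 18813, 19845 and 23187 in CNTF eyes, against 2356, 2022, 1521, 2412 and 1554 in PBS eyes. Every CNTF retina was several times above every PBS retina, with no overlap in either genotype, and PBS mutant 2 was the high array of its group. The rise was 9.43-fold in mutants (log2 3.24 ± 0.13 SE, limma adjusted p = 1.19e-07) and 10.6-fold in normal dogs (3.41 ± 0.13, adjusted p = 8.04e-08). A second TIMP1 probe gave log2 changes of 4.24 ± 0.15 in mutants and 4.08 ± 0.15 in normal dogs. In retina as a whole, more cells of a type and more RNA per cell cannot be told apart, here or for any gene below.

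TIMP2, which also takes part in activating MMP2 at the cell surface, gave a smaller value. In CNTF eyes it ranged from 452 to 1006 in mutants, against 365 to 728 in their PBS eyes, a change of 0.39 ± 0.24 (adjusted p = 0.262). In normal dogs TIMP2 ranged from 512 to 910 with CNTF, against 253 to 637 with PBS, and rose by 0.67 ± 0.24 (adjusted p = 0.0382, 4 of 5 dogs). That call was lost without normal dog 1, 3 or 5 or mutant dog 5, over which the change ran from 0.42 to 0.92. TIMP3, the inhibitor that binds to the matrix of Bruch's membrane, was not called, with -0.08 ± 0.19 (adjusted p = 0.801) in mutants and 0.35 ± 0.19 (adjusted p = 0.134) in normal dogs. Its groups overlapped throughout, from 1042 to 2439 in CNTF and 1184 to 2742 in PBS retinas of mutants, and from 1478 to 2646 in CNTF and 1038 to 2076 in PBS retinas of normal dogs.

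Among fibrillar collagens COL1A2 and COL3A1 rose in both genotypes, while COL2A1 and COL11A2 rose in neither. Of 7 tested, 2 rose and 0 fell in mutants, and 3 rose and 1 fell in normal dogs. This count, and each count by role below, stands against 11.6% of all probes higher and 17.3% lower in mutants, and 23.6% higher and 27.6% lower in normal dogs. COL1A2, a chain of type I collagen, had 2336, 3846, 2428, 4113 and 1799 in CNTF eyes of mutants, against 290, 1198, 344, 596 and 376 in their PBS eyes. In normal dogs COL1A2 had 2988, 2741, 3829, 2045 and 3367 with CNTF, against 360, 311, 242, 227 and 229 with PBS. The groups did not overlap in either genotype, and PBS mutant 2 was again the highest PBS array. The rise was 5.7-fold in mutants (2.51 ± 0.20, adjusted p = 6.01e-06) and 10.9-fold in normal dogs (3.45 ± 0.20, adjusted p = 5.78e-07).

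COL3A1, which forms type III collagen and is often found with type I, was dim in PBS eyes. It had 69.9, 142, 98.4, 107 and 89.3 in CNTF eyes of mutants, against 4.78, 6.99, 18.7, 96.5 and 16.8 in PBS eyes. In normal dogs COL3A1 had 152, 145, 183, 138 and 116 with CNTF, against 70.5, 13.5, 6.62, 15.3 and 12.4 with PBS. All CNTF arrays were above background, against 1 of 5 PBS arrays in each genotype (mutant dog 4 and normal dog 1 were the high ones, and PBS mutant 4 reached into the CNTF range), so the size of the rise is uncertain. It was 2.63 ± 0.57 in mutants (adjusted p = 0.00554) and 3.14 ± 0.57 in normal dogs (adjusted p = 0.00135).

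COL2A1 and COL11A2 behaved otherwise. COL2A1, the type II chain, ranged from 3460 to 8921 in CNTF and 3686 to 12916 in PBS retinas of mutants, and from 2941 to 7300 in CNTF and 3239 to 5076 in PBS retinas of normal dogs. Its change was -0.37 ± 0.22 (adjusted p = 0.231) in mutants and 0.10 ± 0.22 (adjusted p = 0.721) in normal dogs. COL11A2, a type XI chain, fell in normal dogs by 0.55 ± 0.16 (adjusted p = 0.0151), a call lost without normal dog 5, and was not called in mutants (-0.14 ± 0.16). COL5A2, a type V chain that sits within type I fibrils, rose by 0.29 ± 0.10 in normal dogs (adjusted p = 0.0344), with 0.21 ± 0.10 in mutants (adjusted p = 0.137). The COL5A2 call was lost without normal dog 1, 2, 3 or 5, with changes from 0.24 to 0.35.

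COL1A1, the partner chain of COL1A2, was not called by its brightest probe, with -0.35 ± 0.15 in mutants (adjusted p = 0.109) and -0.29 ± 0.15 in normal dogs (adjusted p = 0.128). Other probes of the same genes gave other values, so sequence and position were read for all 137 probes of the 76 genes. In a collagen triple helix glycine returns at a fixed spacing, so that its codon, which starts with GG, comes back every 9 bases. The 4 probes below, of COL1A1 and COL1A2, are shown because they lie in this repeat and their changes differ from those of the probes at the 3′ end of these 2 genes. They are 5′ to 3′ as on the array, with canFam2 positions from the array files, and some genomic spans are longer than the 60-base probe. The glycine codons are in capitals, and the order is COL1A1 (brightest probe, chr9:29513653-29513712, minus strand), then COL1A2 at chr14:22850338-22852645, chr14:22857152-22857307 and chr14:22862056-22862261, all on the plus strand.
COL1A1: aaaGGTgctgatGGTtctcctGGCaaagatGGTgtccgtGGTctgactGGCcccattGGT
COL1A2 upstream: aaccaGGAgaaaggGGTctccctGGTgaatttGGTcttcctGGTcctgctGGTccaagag
COL1A2 middle: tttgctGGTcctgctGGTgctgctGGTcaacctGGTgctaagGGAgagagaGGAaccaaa
COL1A2 downstream: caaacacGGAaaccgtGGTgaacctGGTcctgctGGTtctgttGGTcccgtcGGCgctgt

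Searched as GGNNNNNNNGGNNNNNNNGGN on the probe strand, the repeat was found in 14 of 66 collagen probes (21.2%), in 0 of 71 other probes of these genes, and in 538 of all 43603 probes (1.23%, or 2.4% on either strand). Whether a probe lies in coding or untranslated sequence was otherwise not analysed here.

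The COL1A1 probe printed above lies 5420 genomic bases upstream of the last COL1A1 probe. The last probe, described after its values were seen, had 281, 285, 335, 327 and 204 in CNTF eyes of mutants, against 16.6, 8.52, 8.58, 5.67 and 8.61 in PBS eyes. In normal dogs the last probe had 449, 305, 481, 326 and 329 with CNTF, against 6.58, 120, 3.28, 4.44 and 4.77 with PBS. All CNTF arrays were above background, against 0 of 5 PBS arrays in mutants and 1 of 5 in normal dogs, and no CNTF array overlapped a PBS array. It rose at least 17.5-fold in mutants (adjusted p = 0.000209), as the mean signal with CNTF against the lowest signal that counts as above background in PBS eyes. In normal dogs the fitted rise was 5.39 ± 0.65 (adjusted p = 9.78e-05), whose size is uncertain. The brightest probe instead ranged from 86.6 to 181 in CNTF and 103 to 290 in PBS retinas of mutants, and from 90.6 to 147 in CNTF and 118 to 156 in PBS retinas of normal dogs. Of the other COL1A1 probes 2 were above background on 0 arrays.

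For COL1A2 all 6 probes were tested. The 3 within 182 bases of the last one changed by 2.51, 2.63 and 3.17 in mutants and by 3.45, 3.47 and 3.94 in normal dogs. The printed repeat probes, 14003, 9341 and 4387 bases upstream, changed by 0.31, 0.22 and 0.75 in mutants, and by 0.38, 0.38 and 1.03 in normal dogs. The downstream one was called in both genotypes (adjusted p = 0.00364 in mutants and 0.000364 in normal dogs), and the upstream and middle ones in normal dogs alone (adjusted p = 0.0356 and 0.00942). All 6 estimates were above 0, with sizes that differed between the ends of the gene.

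Repeat probes of COL4A2 and COL2A1 did not run this way. The COL4A2 probe 62337 bases upstream holds the repeat and changed by 0.87 in mutants and 0.79 in normal dogs, more than the last COL4A2 probe (0.15 and -0.14). The COL2A1 repeat probe changed by -0.29 and -0.05, near the last COL2A1 probe (-0.37 and 0.10). A gap between probes was also found without the repeat. COL12A1, which coats collagen fibrils, changed by 0.79 in mutants and 0.38 in normal dogs at its brightest and last probe, against 1.27 and 1.65 at a probe 390 bases upstream. Another COL12A1 probe, 611 bases upstream, rose at least 1.39-fold in mutants and at least 2.81-fold in normal dogs. COL6A1, of type VI microfibrils, changed by 0.02 in mutants and 0.15 in normal dogs at the brightest probe, against 0.58 and 0.66 at the last one. The brightest COL5A2 probe gave 0.21 and 0.29, and another gave 1.25 and 1.30. Over the tested collagen probes, 9 with the repeat had a median change of 0.22 in mutants and -0.05 in normal dogs, with 2 higher and 0 lower in mutants and 4 higher and 2 lower in normal dogs. The 32 without it had medians of 0.29 and 0.34, with 15 higher and 5 lower, then 13 higher and 7 lower. These are descriptions, since several probes share a gene.

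**Figure D2:**
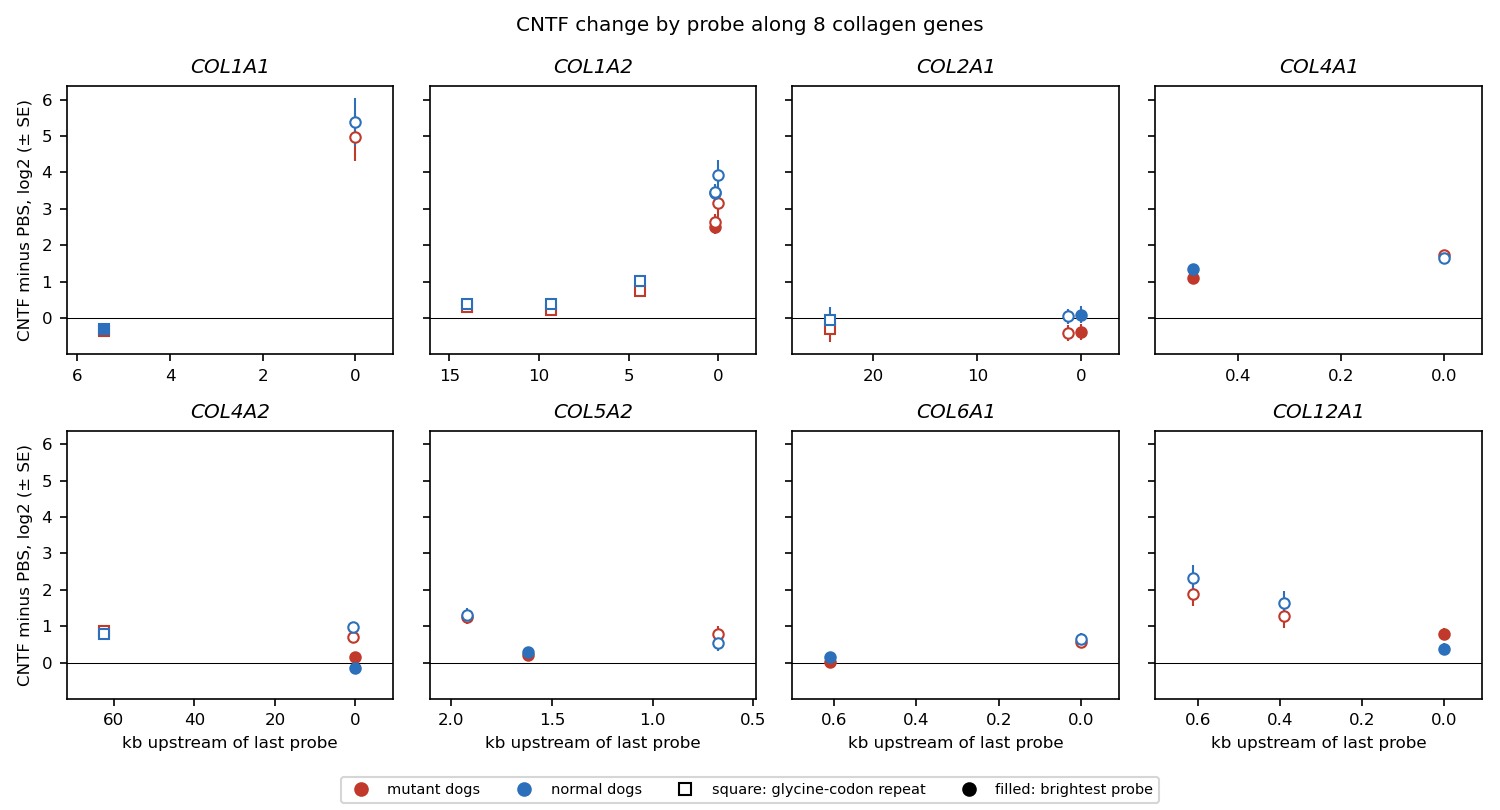
Change with CNTF (CNTF minus PBS, log2 signal, bars ± SE) of each tested probe of 8 collagen genes, against its genomic distance in kb upstream of the last probe of the gene, in mutant (red) and normal (blue) dogs. Squares hold the glycine-codon repeat and filled symbols are the brightest probe. In COL1A1 and COL1A2 the probes at the right, 3′, edge lie at 2.51 or higher while the repeat probes lie between -0.35 and 1.03.

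Of the 4 type IV chains tested, by their brightest probes, COL4A1 was called higher, COL4A3 and COL4A4 lower and COL4A2 neither, in both genotypes. Kinds of chain were not tested against each other. COL4A1, part of the chain set found in nearly all basement membranes, had 627, 936, 925, 839 and 554 in CNTF eyes of mutants, against 279, 524, 391, 366 and 265 in PBS eyes. In normal dogs COL4A1 had 932, 769, 1031, 818 and 882 with CNTF, against 343, 357, 497, 257 and 310 with PBS. Every CNTF array was above every PBS array in both genotypes. It rose 2.15-fold in mutants (1.10 ± 0.11, adjusted p = 2.92e-05) and 2.56-fold in normal dogs (1.36 ± 0.11, adjusted p = 5.29e-06). A second COL4A1 probe gave 1.73 ± 0.12 and 1.64 ± 0.12. COL4A2, its partner chain, was not called by its brightest probe (0.15 ± 0.12 in mutants, -0.14 ± 0.12 in normal dogs), but was higher at its other 2 tested probes, by 0.87 and 0.72 in mutants and 0.79 and 0.97 in normal dogs, the first of which holds the glycine-codon repeat.

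COL4A3 and COL4A4, chains of the specialised network of basement membranes such as that of the kidney glomerulus, fell. COL4A3 had 88.3, 147, 130, 68.9 and 180 in CNTF eyes of mutants, against 220, 133, 182, 259 and 318 in PBS eyes. In normal dogs COL4A3 had 110, 108, 113, 152 and 143 with CNTF, against 237, 330, 388, 309 and 377 with PBS. The normal groups did not overlap, while mutant dog 2 had more with CNTF than with PBS. The change was -0.87 ± 0.24 in mutants (adjusted p = 0.019, 4 of 5 dogs) and -1.38 ± 0.24 in normal dogs (adjusted p = 0.00104), and the mutant call was lost without mutant dog 1 or 4 (changes from -1.13 to -0.62).

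COL4A4 was dim, above background on 1 of 5 CNTF and 5 of 5 PBS arrays in mutants and on 3 and 5 in normal dogs. It changed by -0.88 ± 0.15 in mutants (adjusted p = 0.0014) and -0.62 ± 0.15 in normal dogs (adjusted p = 0.00673), where probes of like signal had medians of -0.22 and -0.52. With another background correction (normexp) the COL4A4 estimates were 0.38 in mutants and 0.06 in normal dogs, above 0.

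Among the 13 other collagens tested, 1 rose and 3 fell in mutants and 0 rose and 6 fell in normal dogs. COL12A1 had 268, 253, 351, 183 and 290 in CNTF eyes of mutants, against 164, 79.8, 222, 141 and 195 in PBS eyes, and rose by 0.79 ± 0.16 (adjusted p = 0.00304) with some overlap between the groups. In normal dogs its CNTF values of 284 to 319 lay above the PBS values of 207 to 259, but the change of 0.38 ± 0.16 was not called (adjusted p = 0.0589). COL7A1, which forms the anchoring fibrils under epithelia, had 97.2, 82.5, 121, 63.2 and 101 in CNTF eyes of mutants, against 173, 106, 131 and 150 in PBS eyes of dogs 1, 2, 4 and 5 (dog 3 had an outlier spot). In normal dogs COL7A1 had 58.3, 82.9, 75.4, 90.6 and 78.4 with CNTF, against 195, 173, 254, 200 and 165 with PBS. The mutant groups overlapped and the normal groups lay far apart, and the changes were -0.71 ± 0.16 in mutants (adjusted p = 0.00952, 4 of 4 dogs, lost without mutant dog 4) and -1.36 ± 0.15 in normal dogs (adjusted p = 7.37e-05).

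COL9A2, a chain of type IX collagen on vitreous and cartilage fibrils, fell by 0.75 ± 0.20 in mutants (adjusted p = 0.0159) and by 0.54 ± 0.20 in normal dogs (adjusted p = 0.0408), in 5 of 5 dogs each. Its groups overlapped, with 140 to 365 in CNTF and 202 to 799 in PBS retinas of mutants, and 103 to 215 in CNTF and 189 to 284 in PBS retinas of normal dogs. The COL9A2 call was lost without mutant dog 1, 2 or 3 in mutants and without normal dog 1, 2 or 4 in normal dogs. COL6A3, of type VI microfibrils, was called lower in mutants alone (-0.64 ± 0.20, adjusted p = 0.0304, 4 of 5 dogs), was above background on 9 of 20 arrays with a median of -0.22 for probes of like signal, and lost the call without mutant dog 2, 3, 4 or 5. In normal dogs it changed by -0.13 ± 0.20 (adjusted p = 0.605).

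Called lower in normal dogs were also COL13A1 and COL25A1, which span the cell membrane, by 1.11 ± 0.31 (adjusted p = 0.0132) and 0.64 ± 0.22 (adjusted p = 0.0296). COL21A1 and COL19A1, which associate with fibrils or basement membranes, fell by 0.79 ± 0.16 (adjusted p = 0.00258) and 0.49 ± 0.18 (adjusted p = 0.041). In mutants these 4 had changes of -0.41, -0.38, -0.37 and -0.04 and were not called. The COL13A1 probe was above background on 1 of 5 CNTF and 5 of 5 PBS arrays of normal dogs, where probes of like signal had a median of -0.52. The COL21A1 probe was above background on 17 of 20 arrays. In normal dogs the dimmest eighth of all probes had a median of -0.52 and the next eighth -0.24. With normexp the calls of COL13A1, COL19A1, COL21A1 and COL25A1 were all lost. COL25A1 was lost without normal dog 1, 3 or 5, and COL19A1 without normal dog 1, 3 or 5 or mutant dog 1, 3 or 5. The misnamed COL4A3BP fell in normal dogs by 0.51 ± 0.12 (adjusted p = 0.00642), with -0.11 ± 0.12 in mutants.

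Laminin chains went both ways, with 1 of 6 tested higher and 3 lower in mutants and 2 higher and 2 lower in normal dogs. LAMB1, a beta chain of widespread laminins, had 227, 384, 332, 1084 and 263 in CNTF eyes of mutants, against 70.5, 467, 118, 279 and 76.2 in PBS eyes. In normal dogs LAMB1 had 648, 365, 421, 387 and 497 with CNTF, against 149, 133, 308, 107 and 79.3 with PBS. The normal groups did not overlap, and mutant dog 2 had less with CNTF than with PBS. LAMB1 rose by 1.33 ± 0.34 in mutants (adjusted p = 0.0135, 4 of 5 dogs, lost without mutant dog 4) and by 1.71 ± 0.34 in normal dogs (adjusted p = 0.00228). A dim LAMB1 probe 25981 bases upstream did not rise. It had -0.24 ± 0.14 in mutants (adjusted p = 0.234) and was at least 1.51-fold lower in normal dogs (adjusted p = 0.000227). It lies in the dimmest eighth of all probes, which had medians of -0.22 in mutants and -0.52 in normal dogs.

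LAMA3, the alpha chain of laminins that anchor epithelia, had 101, 117, 122, 85 and 98.1 in CNTF eyes of mutants, against 245, 212, 344, 256 and 228 in PBS eyes. In normal dogs LAMA3 had 103, 108, 94.5, 103 and 130 with CNTF, against 324, 297, 267, 274 and 300 with PBS. Every CNTF array was far below every PBS array in both genotypes. It fell 2.44-fold in mutants (-1.29 ± 0.12, adjusted p = 1.23e-05) and 2.73-fold in normal dogs (-1.45 ± 0.12, adjusted p = 4.28e-06). The LAMA3 call in mutants was lost with normexp (-0.43, adjusted p = 0.187) and with slide as the block (-1.30, adjusted p = 0.0771), and that in normal dogs was kept under both.

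LAMB2, the beta chain of the inner limiting membrane and of photoreceptor synapses, had 1698, 1068, 1172, 925 and 1054 in CNTF eyes of mutants, against 1994, 2031, 2859, 1604 and 1672 in PBS eyes. In normal dogs LAMB2 had 1635, 1701, 1519, 1568 and 1659 with CNTF, against 1908, 2072, 2023, 2233 and 1716 with PBS. All 10 dogs had less with CNTF, and only in normal dogs did the groups not overlap. It fell by 0.78 ± 0.14 in mutants (adjusted p = 0.00141), while the change of -0.30 ± 0.14 in normal dogs was not called (adjusted p = 0.0879). LAMC1, the gamma chain of most laminins, fell by 0.41 ± 0.11 in mutants (adjusted p = 0.0136, lost without mutant dog 1 or 4) and by 0.35 ± 0.11 in normal dogs (adjusted p = 0.0188, lost without normal dog 3), and its second probe gave 0.43 and 0.17. LAMA4, an alpha chain of vessel walls, rose in normal dogs by 0.39 ± 0.12 (adjusted p = 0.0217), a call lost without normal dog 3, 4 or 5, and had -0.27 ± 0.12 in mutants (adjusted p = 0.122). Probes as bright as LAMA4 had a median of 0.26 in normal dogs.

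**Figure D3:**
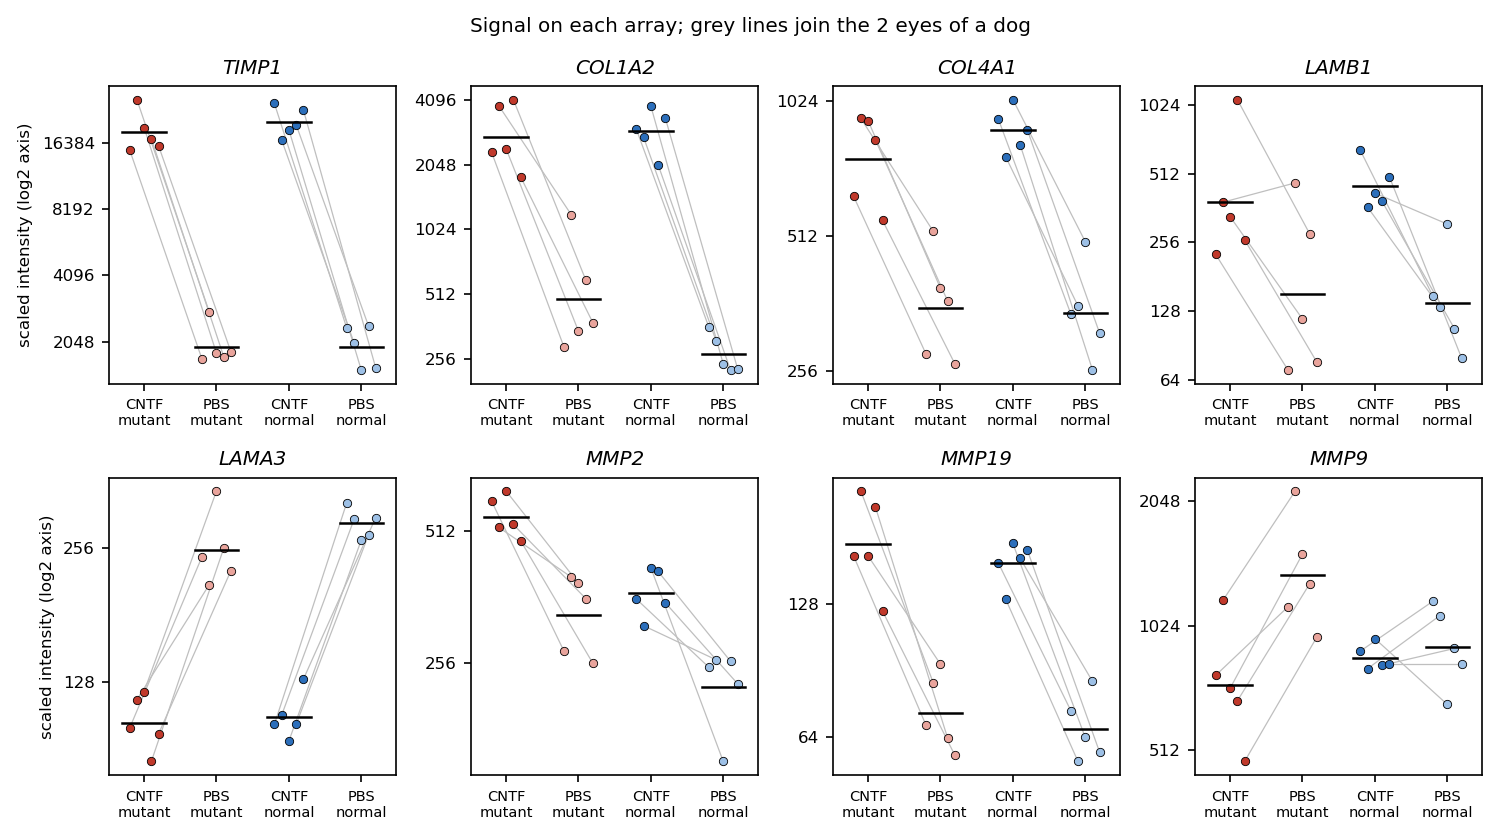
Scaled intensity (log2 axis) on each array for TIMP1, COL1A2, COL4A1, LAMB1, LAMA3, MMP2, MMP19 and MMP9 in the 4 groups of 5, with grey lines joining the 2 eyes of a dog. The CNTF points of TIMP1, COL1A2, COL4A1, MMP2 and MMP19 lie above, and those of LAMA3 below, all PBS points of the same genotype.

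MMPs were mixed, with 2 of 7 tested higher and 3 lower in mutants and 2 higher and 2 lower in normal dogs. MMP19, a secreted protease that cuts basement membrane components, had 164, 230, 164, 212 and 123 in CNTF eyes of mutants, against 67.9, 84.7, 93.3, 63.4 and 58 in PBS eyes. In normal dogs MMP19 had 158, 131, 175, 162 and 169 with CNTF, against 73.3, 56.2, 63.7, 85.3 and 58.9 with PBS. All CNTF arrays lay above all PBS arrays of their genotype, a rise of 2.41-fold in mutants (1.27 ± 0.14, adjusted p = 4.68e-05) and 2.37-fold in normal dogs (1.25 ± 0.14, adjusted p = 4.66e-05).

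MMP2 and MMP9, the gelatinases, which cut type IV and denatured collagen, did not move together. MMP2 had 600, 523, 633, 531 and 488 in CNTF eyes of mutants, against 273, 403, 390, 360 and 256 in PBS eyes. In normal dogs MMP2 had 359, 312, 423, 415 and 352 with CNTF, against 251, 261, 153, 259 and 230 with PBS. The groups did not overlap in either genotype, and MMP2 rose by 0.74 ± 0.16 in mutants (adjusted p = 0.00619) and by 0.71 ± 0.16 in normal dogs (adjusted p = 0.00509).

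MMP9 had 777, 1180, 723, 674 and 481 in CNTF eyes of mutants, against 1139, 2171, 1528, 1295 and 963 in PBS eyes. In normal dogs MMP9 had 890, 807, 954, 822 and 826 with CNTF, against 1174, 1085, 661, 903 and 826 with PBS. All 5 mutants had less with CNTF although the groups overlapped, since CNTF mutant 2 lay above PBS mutants 1 and 5, and in normal dogs the groups ran through each other. MMP9 fell 1.85-fold in mutants (-0.89 ± 0.14, adjusted p = 0.000695), against -0.09 ± 0.14 in normal dogs (adjusted p = 0.618).

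MMP23B, a membrane-anchored MMP, had 98.5, 126, 114, 99.9 and 108 in CNTF eyes of mutants, against 188, 243, 222 and 213 in PBS eyes of dogs 1, 2, 3 and 5 (dog 4 had an outlier spot). In normal dogs MMP23B had 117, 116, 140, 114 and 121 with CNTF, against 182, 220, 291, 209 and 217 with PBS. The groups lay apart in both genotypes, and it fell by 0.96 ± 0.10 in mutants (adjusted p = 5.94e-05, 4 of 4 dogs) and by 0.87 ± 0.09 in normal dogs (adjusted p = 4.7e-05). The MMP23B calls were lost with normexp (-0.26, adjusted p = 0.395, in mutants and -0.44, adjusted p = 0.135, in normal dogs) and with slide as the block (-1.21, adjusted p = 0.11, and -0.87, adjusted p = 0.21). MMP16, a membrane-type MMP, fell by 0.55 ± 0.15 in mutants (adjusted p = 0.0197, lost without mutant dog 2, 3 or 4) and by 0.76 ± 0.15 in normal dogs (adjusted p = 0.00232), in 5 of 5 dogs each.

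No ADAMTS protease was called higher. Of 6 tested, 0 were called in mutants and 3 were lower in normal dogs. ADAMTS5, an enzyme that cuts aggrecan, had 191, 186, 519, 383 and 454 in CNTF eyes of mutants, against 478, 222, 488, 277 and 411 in PBS eyes, a change of -0.18 ± 0.23 (adjusted p = 0.612). In normal dogs ADAMTS5 had 242, 276, 193, 313 and 165 with CNTF, against 431, 466, 537, 474 and 477 with PBS, without overlap, and fell 2.06-fold (-1.04 ± 0.23, adjusted p = 0.00418). In mutants the eyes of the 5 dogs went both ways.

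ADAMTS6, whose mouse form is needed for heart development, was not well above background on any CNTF array of normal dogs and was on all 5 of their PBS arrays. It was at least 2.67-fold lower there (adjusted p = 0.00177), where probes of like signal had a median change of -0.52, and changed by -0.38 ± 0.37 in mutants (adjusted p = 0.477). ADAMTS18, linked to eye development in the mouse, had 239 to 339 with CNTF and 358 to 463 with PBS in normal dogs, and fell by 0.53 ± 0.12 (adjusted p = 0.00387), with -0.03 ± 0.12 in mutants. ADAMTS4, the other main aggrecanase, changed by 0.02 ± 0.12 in mutants (adjusted p = 0.907) and 0.08 ± 0.12 in normal dogs (adjusted p = 0.608).

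The ADAMTS-like proteins lack the protease domain. ADAMTSL2, which acts on fibrillin microfibrils, fell by 0.92 ± 0.18 in mutants (adjusted p = 0.00285) and by 0.51 ± 0.18 in normal dogs (adjusted p = 0.0342, 4 of 5 dogs). ADAMTSL1 fell by 0.62 ± 0.14 in mutants (adjusted p = 0.00742) and by 0.47 ± 0.14 in normal dogs (adjusted p = 0.0183). In normal dogs the ADAMTSL2 call was lost without dog 1, 2 or 4, with changes from -0.64 to -0.28, and the ADAMTSL1 call without dog 1.

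By role, then, collagens and laminins together had 5 of 30 tested higher and 8 lower in mutants, with a median change of -0.29, and 6 higher and 11 lower in normal dogs, with a median of -0.32. Proteases had 2 of 13 higher and 3 lower in mutants (median -0.37) and 2 higher and 5 lower in normal dogs (median -0.53). The TIMPs had 1 of 3 higher in mutants (median 0.39) and 2 of 3 in normal dogs (median 0.67). Against the shares of all probes given above (11.6% higher and 17.3% lower in mutants, 23.6% and 27.6% in normal dogs), several of these counts lie near the background, and with few genes per role none is read as a result about the role. No test was made between these roles.

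Slide bears on all of these counts. With slide in place of dog as the block, TIMP1 (3.09, adjusted p = 0.00145) and COL4A4 (-1.92, adjusted p = 0.00989) were called in mutants, 2 of the 21. In normal dogs 5 of the 29 were called: TIMP1 (3.91, adjusted p = 0.0002), COL1A2 (3.70, adjusted p = 0.0218), MMP19 (1.71, adjusted p = 0.0282), LAMA3 (-1.40, adjusted p = 0.0431) and COL4A3 (-2.51, adjusted p = 0.0176). Over all probes that block left 795 calls in mutants and 1147 in normal dogs, against 8473 and 15014 with dog as the block. Within slide 3 alone, the CNTF arrays of normal dogs minus the PBS arrays of mutants gave 3.51 for TIMP1, 2.60 for COL1A2, 1.88 for COL3A1, 1.44 for COL4A1, 1.74 for LAMB1, 1.25 for MMP19, 0.14 for MMP2, -1.2 for LAMA3, -1.40 for COL4A3, -0.87 for MMP23B, 0.03 for LAMB2 and -0.40 for MMP9. These differences mix treatment with genotype, on 2 arrays each. Among called falls, the slide block turned the sign in mutants for ADAMTSL1 (0.16), LAMB2 (0.13) and MMP16 (0.72), and in normal dogs for ADAMTSL1 (0.28), ADAMTSL2 (0.53), COL11A2 (0.03), COL9A2 (0.32) and MMP16 (0.51). Normexp turned the sign of the mutant falls of ADAMTSL1 (0.11), COL4A4 (0.38), COL6A3 (0.49), COL7A1 (0.06) and MMP16 (0.08), and of the normal falls of COL13A1 (0.06) and COL4A4 (0.06). COL4A4 was thus called lower in mutants with the slide block and was above 0 with normexp. Of the called rises, 7 of 8 in mutants and 7 of 10 in normal dogs lost the call with the slide block. Among them COL3A1 had 0.85 (adjusted p = 0.924) in mutants and 1.34 (adjusted p = 0.595) in normal dogs, COL4A1 had 0.91 (adjusted p = 0.513) and 1.76 (adjusted p = 0.0715), and LAMB1 had 0.81 (adjusted p = 0.918) and 2.72 (adjusted p = 0.25).

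With normexp 10 of the 21 calls in mutants and 14 of the 29 in normal dogs were kept. In mutants these were TIMP1, COL1A2, COL3A1, COL4A1, COL12A1, LAMB1, MMP2 and MMP19, all higher, and LAMB2 and MMP9, lower. In normal dogs they were TIMP1, TIMP2, COL1A2, COL3A1, COL4A1, LAMB1, MMP2 and MMP19, all higher, and ADAMTS5, ADAMTS18, COL4A3, COL4A3BP, COL7A1 and LAMA3, lower.

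Whether the CNTF change itself differed between genotypes was asked next. No member was called (0 of 50, against 0% of all probes), and the lowest adjusted p was 0.103. An unadjusted p under 0.05 was found for 10163 of all 29334 tested probes and, at a smaller share, for 9 of the 50 members. First among these by p, named after their values were seen, were MMP9, with a change lower in mutants than in normal dogs by -0.80 ± 0.20 (limma, unadjusted p = 0.00178), LAMA4 by -0.66 ± 0.17 (unadjusted p = 0.00283) and COL1A2 by -0.93 ± 0.29 (unadjusted p = 0.0077). ADAMTS6 (1.56 ± 0.52), ADAMTS5 (0.86 ± 0.33), COL7A1 (0.65 ± 0.22), ADAMTS18 (0.51 ± 0.17) and COL4A3BP (0.40 ± 0.18) had changes higher in mutants by estimate, and LAMB2 had -0.49 ± 0.19. A gene called in 1 genotype alone, of which there were 12 in normal dogs and 4 in mutants, is thus not shown to differ between them. Slide bears on this comparison too, since with slide as the block 69 of all 29152 probes were called for the difference.

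Between genotypes at the same treatment, no member was called. In PBS eyes 0 of 50 passed, against 0.0273% of all probes. There 13 of the 50 had an unadjusted p under 0.05, a smaller share than the 10142 of all 29334 tested probes. The lowest adjusted p was 0.0955, for COL21A1, lower in mutants (29.5 to 41.9) than in normal dogs (45.1 to 85) without overlap, a difference of -0.60 ± 0.19. LAMA4 (0.49 ± 0.16, adjusted p = 0.0959) and MMP2 (0.55 ± 0.19, adjusted p = 0.0989) were higher in mutants by estimate. Without normal dog 1, LAMA4, COL21A1 and COL4A3BP passed, together with 6217 of all probes (21.2%), so this comparison turns on that array. In CNTF eyes 0 of 50 passed, against 0.00682% of all probes, and 5 had an unadjusted p under 0.05, against 1644 of all 29334. MMP2 stood first, at 488 to 633 in mutants against 312 to 423 in normal dogs, without overlap (0.58 ± 0.13, unadjusted p = 0.000833, adjusted p = 0.436). MMP2 was thus higher in mutants by a like estimate under both treatments, and in neither did it pass. Genotype was largely tied to slide within each treatment. With slide as a block, 2 of all probes were called in PBS eyes and 104 in CNTF eyes, against 8 and 2 without it.

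Other genes of the matrix were read from lists that hold none of the genes above. The slide block, normexp and the leaving out of dogs were read for the members alone, so the changes on these lists lack those checks. Over all probes 11.6% were higher and 17.3% lower in mutants, and 23.6% higher and 27.6% lower in normal dogs, and a list with counts near these shares is not set apart by them. In mutants 4 of 11 tested genes of collagen processing were higher and 0 lower (median 0.35), and in normal dogs 7 higher and 0 lower (median 0.63). PCOLCE, which speeds the trimming of fibrillar procollagen, rose by 2.08 ± 0.22 in mutants (adjusted p = 4.5e-05) and by 3.15 ± 0.22 in normal dogs (adjusted p = 1.78e-06). It ranged from 99.7 to 153 with CNTF and 24.5 to 43.4 with PBS in mutants, and from 182 to 495 with CNTF and 23.9 to 38.7 with PBS in normal dogs, far apart in both. P4HA2, a prolyl hydroxylase subunit, rose by 0.63 in mutants and 0.85 in normal dogs. The collagen chaperone SERPINH1 and the lysyl hydroxylase PLOD3 rose in normal dogs (1.2 and 0.64) and had 0.52 and 0.28 in mutants, below the threshold.

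Matrix receptors had 4 of 12 higher and 1 lower in mutants and 6 higher and 0 lower in normal dogs. ITGA5, the alpha subunit of the fibronectin receptor, rose by 1.26 ± 0.12 in mutants and 1.30 ± 0.12 in normal dogs, the collagen receptor DDR1 by 0.84 in mutants and 1.55 in normal dogs, and ITGA6, a laminin receptor subunit, by 0.56 in mutants and 0.92 in normal dogs. The hyaluronan receptor CD44 rose by 0.93 in normal dogs and had 0.20 in mutants, below the threshold.

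Glycoproteins had 4 of 14 higher and 1 lower in mutants, and 5 higher and 2 lower in normal dogs. VTN (vitronectin) rose by 1.53 in mutants and 2.01 in normal dogs, and THBS1 (thrombospondin) by 0.99 in mutants and 1.33 in normal dogs. EFEMP1, mutated in an inherited human macular dystrophy, rose by 1.38 in mutants and 1.27 in normal dogs, and FBLN5, of elastic fibres, by 1.17 in mutants and 1.5 in normal dogs. Proteoglycans had 2 of 10 higher in mutants and 6 in normal dogs, with 0 lower in either, among them LUM, a keratan sulphate proteoglycan, by 0.57 in mutants and 0.86 in normal dogs. SDC4, SDC2 and CSPG4, on the cell surface, rose in normal dogs by 0.78, 0.63 and 1.00, and had 0.28, 0.18 and -0.43 in mutants, below the threshold.

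Of the other proteases and inhibitors 4 of 12 were higher and 2 lower in mutants and 6 higher and 3 lower in normal dogs. A2M, which traps proteases of many kinds, rose by 3.70 ± 0.30 in mutants and 3.82 ± 0.30 in normal dogs, and ADAM15 by 0.61 in mutants and 1.07 in normal dogs. RECK, a membrane-bound MMP inhibitor, fell by 0.63 in mutants and by 0.88 in normal dogs. Of the TGF-beta genes 4 of 10 were higher and 1 lower in mutants and 5 higher and 3 lower in normal dogs. LTBP1, which holds latent TGF-beta in the matrix, rose by 3.16 in mutants and 3.52 in normal dogs. TGFBI rose by 1.66 in mutants and 1.90 in normal dogs, the cytokine TGFB1 by 1.05 in mutants and 1.33 in normal dogs, and the receptor TGFBR2 by 0.81 in mutants and 1.27 in normal dogs.

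**Figure D4:**
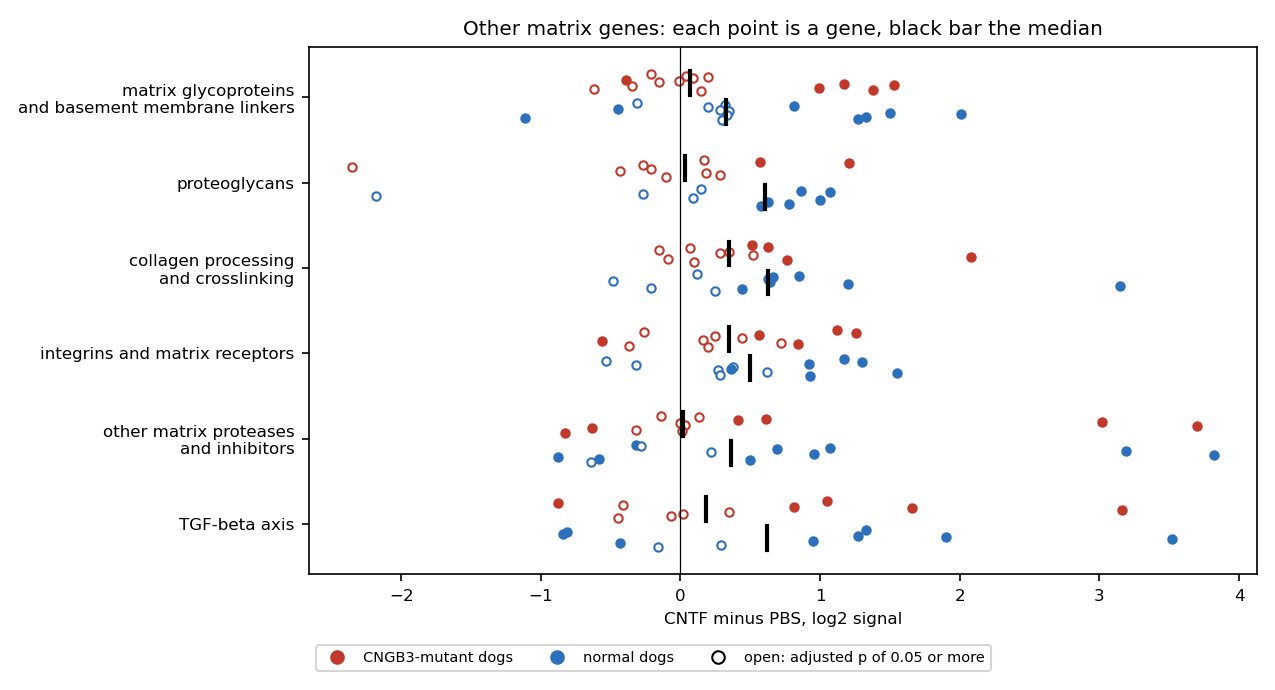
Change with CNTF (CNTF minus PBS, log2 signal) of each tested gene on 6 lists of other matrix genes, in CNGB3-mutant (red) and normal (blue) dogs, with black bars at the medians. Medians lie at or above 0 in every list, from 0.02 to 0.35 in mutants and 0.32 to 0.63 in normal dogs.

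Markers of cell types were read as well, and the same shares of all probes apply to their counts. Markers that are not members also lack the checks by slide block, normexp and left-out dogs. A summed signal mostly follows the brightest probes of its list. Of 9 microglia and macrophage markers 8 were higher in mutants and 9 in normal dogs, and their summed signal was 11747 to 19223 in CNTF mutant, 3248 to 4713 in PBS mutant, 11170 to 17426 in CNTF normal and 2265 to 3015 in PBS normal retinas. CX3CR1 of this list was at 47 to 68.7, 5.74 to 24.8, 55.5 to 84.3 and 5.36 to 23 in the same order of groups. Of 10 fibroblast markers, which include COL1A1, COL1A2 and COL3A1, 4 were higher and 1 lower in mutants and 5 higher and 2 lower in normal dogs, with sums of 8125 to 13933, 4381 to 8980, 8408 to 11806 and 3811 to 4907. Without those 3 collagens, which were left out after the values were seen, 2 of 7 (LUM and MFAP5) were higher and 1 (PDGFRA) lower in mutants, and 3 (LUM, MFAP5 and DPT) higher and 2 (PDGFRA and PI16) lower in normal dogs. The sums were then 6133 to 9532 in CNTF mutant, 3955 to 7485 in PBS mutant, 5432 to 7734 in CNTF normal and 3431 to 4533 in PBS normal retinas, so that the mutant groups overlapped. Of 7 pericyte and smooth muscle markers 2 were higher and 0 lower in mutants and 3 higher and 1 lower in normal dogs (sums of 3269 to 7704, 1493 to 3105, 3099 to 5678 and 1287 to 1800). Desmin (DES) led that list, at 5.11 in mutants and 5.68 in normal dogs. In mutants DES had 1197 to 6028 with CNTF and 31.3 to 112 with PBS. In normal dogs it had 1142 to 3332 with CNTF and 8.6 to 231 with PBS. Much of the rise in the sums is therefore that of DES. TAGLN was called higher in both genotypes (0.92 and 1.60). CSPG4 was called higher in normal dogs alone (1.00, with -0.43 in mutants). PDGFRB was called lower in normal dogs (-0.56), and RGS5, KCNJ8 and MYH11 were called in neither genotype.

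Of 10 photoreceptor markers 8 were lower in mutants and 5 in normal dogs, and 0 were higher. Of 5 endothelial markers 1 was higher and 1 lower in mutants, and 3 higher and 1 lower in normal dogs, and of 9 pigment epithelium and melanocyte markers 2 were lower in mutants, 3 in normal dogs and 0 higher. Müller glia markers had 1 of 6 higher and 3 lower in mutants, and 3 higher and 2 lower in normal dogs. Neutrophil markers had 1 of 4 higher in mutants and 2 in normal dogs, and lens and ciliary markers 2 of 7 lower in mutants and 1 in normal dogs. The part of any of these cells in the changes of the matrix genes was not tested.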

How the data were processed

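RNA of 20 dog retinas was measured on 1-colour 60-base arrays. Per the labels' protocols, Cy3-labelled cRNA was made from total RNA, and tissue was labelled retina. Per the file headers, the intensity of each spot came from Agilent Feature Extraction 9.5.3.1, with background subtracted and no scaling between arrays, and probe positions refer to canFam2. The deposited matrix holds log2 values, with Partek 6.4 named in the submitters' processing notes, and it was used only as an alternative.

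Control spots (1417 per array) and outlier spots were left out, spots of a probe were averaged (43603 probes), and each array's 75th percentile of log2 intensity was subtracted (291 to 592 units). The filter asked for a signal well above background in 4 or more of the 5 retinas of some group and for 3 values in each group, and 29334 probes passed (19934 above background throughout). The arrays' number limits the precision.

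Tests used limma 3.58.1 in R 4.3.3, two-sided, with Benjamini-Hochberg adjustment over all kept probes and a call at 0.05. CNTF was tested with the dog as a block on 20 arrays, and genotype on 10 arrays without covariates. The fit was tested on simulated data. Tables and figures used Python 3.11.15, pandas 2.3.3 and matplotlib 3.10.9. Both eyes of a dog were paired by the replicate number in the sample titles. Sex, labelled age and genotype match within the pairs. Normal dogs 1, 2, 4 and 5 share all of these, as do mutant dogs 2 and 3, so only the number pairs their eyes. As a check, after group means were removed the eyes of a dog correlated at -0.255 to 0.838, and in 4 of 10 dogs that was the best match. These were normal dog 1 and mutant dogs 2, 4 and 5. The other normal dogs had -0.131, -0.255, 0.393 and -0.119, and mutant dogs 1 and 3 had 0.207 and 0.488. The check thus gives little backing to the pairing of normal dogs and of mutant dogs 1 and 3. The dog block and counts of dogs rest on that pairing.

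Genes named are, per role and genotype, up to 6 called rises and 6 called falls by size, all TIMPs, 15 genes chosen as central that were measured, and the first 4 of each other list by adjusted p in normal dogs. A gene that meets this rule is not reported here. Other probes of these genes were chosen after their values were seen. The members, lists and rule were chosen with earlier results of these data known. Alternatives were quantile normalization, the deposited values, normexp (offset 50), other filters, a variance trend, slide as a block, no dog block, the median over a gene's probes, male dogs only and each dog left out. Gene names are those of the array files.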

Additional observations from a re-analysis of the deposited data

Results flagged for a closer look

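A single array stood far from the other 4 of its group in 4 of 152 groups checked, over 38 members, where chance gives about 1 in 20. The measure is the gap to the nearest array over the range of the group, with a limit of 0.71 for 5 arrays. TIMP1 was high in PBS mutant 2 (0.848, a gap of 0.61 on the log2 scale), and PBS mutant 2 was the highest of its group for 22 of 50 tested members. ADAMTSL1 was high in CNTF normal 4 (0.829, gap 0.35). COL11A2 was high in PBS normal 3 (0.79, gap 0.59), and MMP2 was low in the same array (0.767, gap 0.59).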

How the results depend on the processing

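Slide and background correction moved the counts of called members most. With slide as a block, mutants had 2 calls (1 higher and 1 lower) and normal dogs 5 (3 higher and 2 lower), against 21 (8 and 13) and 29 (10 and 19) as reported. With normexp, which gave all-probe medians of 0.17 in mutants and 0.09 in normal dogs, mutants had 10 calls with 2 lower, and normal dogs 14 with 6 lower. Over all probes normexp called 3298 in mutants and 5758 in normal dogs, against 8473 and 15014. The share of higher among all called probes was 56.0% in mutants and 61.1% in normal dogs with normexp, and 62.8% and 75.2% with slide, against 40.2% and 46.0%. The median over a gene's probes gave 13 higher in mutants. There the median set the size and sign alone. The call came from the smallest adjusted p among the gene's probes times their number, so it can rest on 1 probe. Without the replicate block, pairing both eyes of a dog, mutants had 7 higher and 10 lower, and normal dogs 10 higher and 14 lower. Leaving out a dog gave 15 to 21 calls in mutants (7 to 8 higher, 8 to 13 lower), 23 to 32 in normal dogs (7 to 12 higher, 15 to 20 lower), 0 to 0 for the difference, 0 to 3 for genotype in PBS eyes (0 to 1 higher, 0 to 2 lower) and 0 to 0 in CNTF eyes. Male dogs only gave 0 members in either genotype comparison. With quantile normalization COL6A3 lost its call in mutants, and ADAMTSL2, COL13A1, COL4A4, COL9A2 and LAMA4 in normal dogs, as with the deposited values.

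Signs turned as follows, and the cause was not tested. In mutants normexp gave 0.01 for ADAMTS18, -0.01 for ADAMTS4, 0.49 for ADAMTS6, 0.11 for ADAMTSL1, 0.24 for COL11A2, 0.48 for COL13A1, 0.11 for COL1A1, 0.47 for COL21A1, 0.15 for COL25A1, 0.38 for COL4A4, 0.49 for COL6A3, 0.06 for COL7A1 and 0.08 for MMP16. Slide as a block gave 0.08 for ADAMTS18, 0.16 for ADAMTSL1, 0.69 for COL19A1, 0.13 for LAMB2, 0.72 for MMP16 and 0.22 for TIMP3 in mutants. The median over probes gave 2.31 for COL1A1 and 0.01 for LAMC1. In normal dogs slide gave 0.28 for ADAMTSL1, 0.53 for ADAMTSL2, 0.03 for COL11A2, -0.01 for COL12A1, 0.43 for COL4A2, 0.74 for COL6A3, 0.32 for COL9A2, 0.42 for LAMB2, 0.51 for MMP16 and 0.52 for MMP9. Normexp gave 0.06 for COL13A1, 0.06 for COL4A4 and 0.23 for COL6A3. Quantile normalization gave -0.11 for COL2A1 and 0.08 for COL6A3, the deposited values -0.13 and 0.06, and the median over probes 2.55 for COL1A1 and 0.79 for COL4A2. Within slide 3, set against the change in mutants, COL6A3 had 0.07, LAMB2 0.03 and MMP16 0.35, and against that in normal dogs COL19A1 0.11, LAMA4 -0.05 and MMP16 0.35. Leaving out a dog turned the sign in mutants for ADAMTS18 (-0.10 to 0.02), ADAMTS4 (-0.05 to 0.10), ADAMTS5 (-0.34 to 0.11), COL11A2 (-0.28 to 0.01) and COL19A1 (-0.17 to 0.16), and in normal dogs for COL2A1 (-0.01 to 0.27). Signal near background limits the sizes given for COL3A1, COL4A4, COL6A3, COL13A1, COL21A1 and ADAMTS6.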
